A study of Mus musculus with 12 samples.

Results

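Microglia are the macrophages of the brain. They enter the neural tube early in embryonic life from the yolk sac, survive through the receptor of colony stimulating factor 1, and mature in place under factors released by neurons and other brain cells. Some of their genes (Csf1r, Cx3cr1, Aif1, Trem2, Tyrobp and the 3 chains of complement C1q) are also used by other macrophages, while P2ry12 and Tmem119 are taken as marks of the mature, resting state. The account below follows these 10 genes, 8 early or shared and 2 mature, of the 50600 gene identifiers counted. They are a list of known microglia genes, taken by symbol.

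Poly(A)+ RNA was sequenced from cortices of C57BL/6 mice of 4 ages: the embryonic days E11, E13, E17, and postnatal day P1. No treatment or engineered allele is named in the labels. A library (A, B or C of its age) held the cortex of a single animal, and no 2 animals of the same age shared a litter, so the 3 libraries per age are separate animals. Unsorted tissue was used, so that a lower level may mean fewer microglia or less RNA of a gene in each of them, and these cannot be told apart. Libraries held 28173745 to 45858712 counts. Of all identifiers 17847 had enough counts to be tested, and all 10 microglia genes were among them, with 16 to 929 reads per library. Levels are in CPM, reads of a gene per 1e6 reads of the library after libraries were scaled to each other, and lay between 0.573 and 23.9 CPM. Changes are log2 fold changes of the later minus the earlier age, with the standard error (SE) of the fit, and a gene is said to have risen or fallen where edgeR's quasi-likelihood test, adjusted over all tested genes, gave a p under 0.05.

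Promoters are shown for 4 of the genes on which the results turn. These are P2ry12 and Trem2, which rose the most, and C1qb and C1qc, neighbours on chromosome 4 whose proportion to each other shifted. Each runs from 250 bases before to 50 bases after the start of the gene in RefSeq (build GRCm38.p6), read 5′ to 3′ along the strand of the gene. Capitals mark GGAAGT, an extended form of the GGAA core bound by PU.1 and other ETS factors, or its reverse complement ACTTCC. PU.1, the product of Spi1, is the main transcription factor of the macrophage lineage. The coordinates are chr3:59262936-59263235 (minus strand) for P2ry12, chr17:48346151-48346450 (plus strand) for Trem2, chr4:136886151-136886450 (minus strand) for C1qb and chr4:136892865-136893164 (minus strand) for C1qc.
P2ry12: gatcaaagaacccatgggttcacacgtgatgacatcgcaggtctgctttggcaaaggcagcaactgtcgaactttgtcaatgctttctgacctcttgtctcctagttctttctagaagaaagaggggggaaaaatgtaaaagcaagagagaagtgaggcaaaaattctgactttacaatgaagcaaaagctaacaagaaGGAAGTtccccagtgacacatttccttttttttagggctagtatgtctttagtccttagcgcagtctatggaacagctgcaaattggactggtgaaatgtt
Trem2: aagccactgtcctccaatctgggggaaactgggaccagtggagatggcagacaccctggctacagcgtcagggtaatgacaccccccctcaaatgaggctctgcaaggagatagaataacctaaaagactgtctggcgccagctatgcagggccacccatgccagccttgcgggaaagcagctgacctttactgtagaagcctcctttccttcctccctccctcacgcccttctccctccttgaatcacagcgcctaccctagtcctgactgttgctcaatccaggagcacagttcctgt
C1qb: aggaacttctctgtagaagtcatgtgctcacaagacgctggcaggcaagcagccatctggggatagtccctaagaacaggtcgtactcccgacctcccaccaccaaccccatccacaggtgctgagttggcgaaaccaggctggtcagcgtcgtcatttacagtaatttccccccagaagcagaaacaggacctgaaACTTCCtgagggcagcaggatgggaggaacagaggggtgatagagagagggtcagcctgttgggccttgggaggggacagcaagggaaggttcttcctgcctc
C1qc: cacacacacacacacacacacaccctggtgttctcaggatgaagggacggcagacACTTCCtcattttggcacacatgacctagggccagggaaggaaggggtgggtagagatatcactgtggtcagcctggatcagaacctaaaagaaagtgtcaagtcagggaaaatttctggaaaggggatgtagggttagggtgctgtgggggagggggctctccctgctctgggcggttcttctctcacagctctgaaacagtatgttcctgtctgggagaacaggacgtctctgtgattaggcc
The promoter of P2ry12 held GGAAGT once, on the strand of the gene, starting at base 200 of the window. That of C1qb held it once on the opposite strand at base 198, and that of C1qc once on the opposite strand at base 56. The match in C1qc was also a match to GAGGAAGT, the longer PU.1 motif, which contains the shorter one. Trem2, and also Cx3cr1 and Aif1, whose promoters are not printed, held neither GGAAGT nor GAGGAAGT in these windows. The shorter core GGAA was not searched. Searched on both strands, GGAAGT was present in 23.8% of 32851 promoters of the same 300 bases and GAGGAAGT in 3.2%. A match describes the letters only, and binding was not measured. RefSeq promoters of 6 of the 10 genes were used.

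Between neighbouring ages, at most 3 of the 10 genes passed the test. From E11 to E13 Tmem119 fell and the other 9 did not pass, beside 40.1% of all tested genes that changed (22.6% higher and 17.5% lower). From E13 to E17 P2ry12 and C1qa rose and Tmem119 fell, beside 73.8% (36.8% higher and 37% lower). From E17 to P1 Trem2, Tyrobp and C1qc rose, beside 49.9% (24% higher and 25.9% lower). No member fell in that step with edgeR, DESeq2 or limma-voom, and 0 fell at an unadjusted p under 0.05 in edgeR. Over the whole interval from E11 to P1 Cx3cr1, Trem2, C1qa, C1qc and P2ry12 rose and Tmem119 fell, beside 82.3% (40.5% higher and 41.8% lower). In the test across the 4 ages together 7 of the 10 differed, beside 90.2%, and Csf1r, Aif1 and C1qb did not pass (edgeR adjusted p = 0.287, 0.782 and 0.637). Without library P1 B 4 passed, which were Cx3cr1, P2ry12, Tmem119 and Trem2. The median log2 change of the 10 was -0.13, 0.16, 0.30 and 0.43 in the 4 comparisons in the order given, against -0.04 to 0.0043 over all tested genes.

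**Figure D1:**
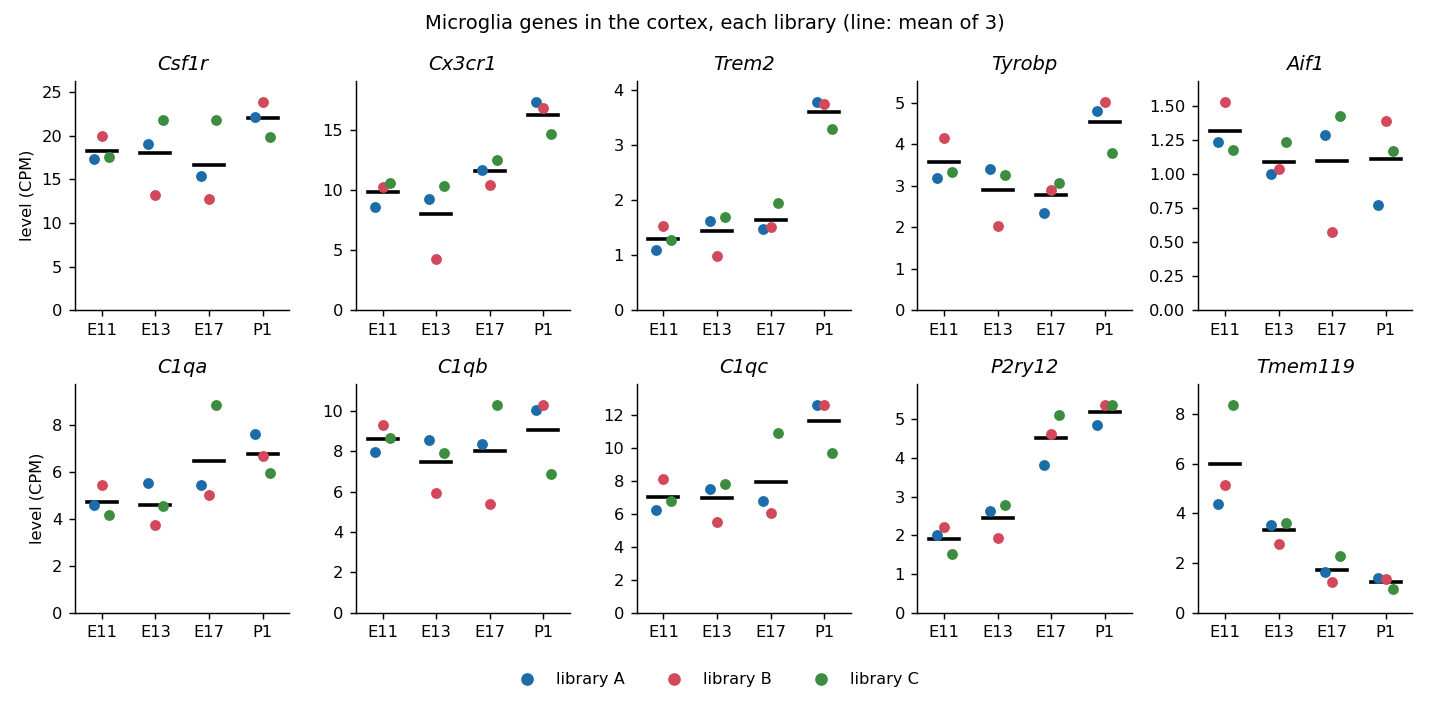
Level in CPM (vertical axis, from 0, own scale for each gene) of the 10 microglia genes at E11, E13, E17 and P1 (horizontal axis), with 1 point per library and a line at the mean of 3. Trem2 at P1 (3.29 to 3.78 CPM) lies above every earlier library, P2ry12 steps up between E13 and E17, and Tmem119 falls from 8.38 CPM in its highest E11 library to 0.954 CPM in its lowest P1 library.

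The libraries of an age differed from each other in the same direction for many of these genes. Library E17 C had the highest level of its age for 10 of the 10 genes, and E13 B the lowest of its age for 9 of 10. At E11 library B was highest for 8 of 10, and at P1 library C was lowest for 8 of 10. The summed level of the 10 genes was 56.6 to 67.6 CPM at E11, 41.4 to 65.1 at E13, 50.5 to 78.2 at E17 and 71.6 to 87.2 at P1. Ratios between 2 genes of the same library do not depend on its scaling or on a shift equal for both genes. They are given for this reason beside the levels. The shift was not equal for all genes. Per read of Csf1r, E17 C had the lowest value of its age for Cx3cr1 (0.574) and P2ry12 (0.235), and the highest for C1qa (0.407) and C1qc (0.502).

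Csf1r, the receptor on which microglia depend for survival, was the member with the most reads. Its level was 17.3, 19.9 and 17.6 CPM in E11 libraries A, B and C, 19.1, 13.1 and 21.8 at E13, 15.3, 12.7 and 21.8 at E17, and 22.2, 23.9 and 19.9 at P1. Ranges of neighbouring ages overlapped throughout, and no comparison passed the test. The change from E11 to P1 was 0.27 ± 0.20 (SE) and that from E17 to P1 0.39 ± 0.20 (edgeR adjusted p = 0.231 and 0.121). The second passed without library E17 C (0.65, adjusted p = 0.0145). Reads of Csf1r may include reads of Hmgxb3, whose exons lie on the opposite strand and share up to 873 bases with it in GENCODE M21, since the strand setting of the counting is not given in the sources used here.

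Cx3cr1, the receptor of the neuronal chemokine fractalkine, rose. It was at 8.60, 10.2 and 10.6 CPM at E11, at 9.29, 4.27 and 10.4 at E13, at 11.7, 10.5 and 12.5 at E17, and at 17.3, 16.9 and 14.6 at P1. Every P1 library lay above every earlier library, and the lowest value was in E13 B. The rise from E11 to P1 was 0.73 ± 0.24 (1.66-fold, edgeR adjusted p = 0.013). It missed the threshold without E11 A (0.64, adjusted p = 0.0512) and where libraries were scaled by their total counts only (0.50, adjusted p = 0.0692). The steps from E13 to E17 (0.54 ± 0.24) and from E17 to P1 (0.49 ± 0.24) separated the libraries of both ages fully but did not pass (adjusted p = 0.0636 and 0.103). They passed without E13 C (0.77, adjusted p = 0.0167) and without E13 B (0.49, adjusted p = 0.00204), respectively. Per read of Csf1r in the same library, Cx3cr1 had 0.496 to 0.604 reads at E11, 0.325 to 0.487 at E13, 0.574 to 0.823 at E17 and 0.706 to 0.783 at P1. The ratio at E13 lay below that of every other age. Exons of Cx3cr1 share 78 bases with those of Gm33858 on the opposite strand in GENCODE M21, so its reads may include reads of that gene.

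Of 6 genes of ligands for the member receptors or for the mature state, 4 rose and 2 fell from E11 to P1, beside 40.5% of all tested genes higher and 41.8% lower. Il34, the neuronal ligand of Csf1r, was at 0.0886 to 0.442 CPM at E11, 0.337 to 0.617 at E13, 0.859 to 1.03 at E17 and 1.99 to 2.13 at P1, a rise of 2.95 ± 0.35 (edgeR adjusted p = 2.4e-06, and 3.57 without E11 B). Csf1, the other ligand of the same receptor, fell from a mean of 12.0 ± 1.09 CPM (SD, n = 3) at E11 to 8.52 ± 0.638 at P1, by 0.50 ± 0.10 on the log2 scale (adjusted p = 0.000466). Cx3cl1, which encodes fractalkine, first fell from 13.1 to 14.5 CPM at E11 to 6.99 to 8.92 at E13 (log2 change -0.78 ± 0.13, adjusted p = 0.000367). It then rose to 25.7 to 33.3 CPM at E17 and 60.9 to 76.3 at P1 (1.81 ± 0.13 and 1.21 ± 0.12, adjusted p = 2.1e-08 and 5.8e-06). E13 was also the age of the lowest ratio of Cx3cr1 to Csf1r, and a link between both was not tested. Apoe and Clu encode lipoproteins that bind TREM2, and rose from E11 to P1 by 2.07 ± 0.11 and 2.27 ± 0.19 (adjusted p = 6.3e-10 and 2.2e-07). Tgfb1, the cytokine that maintains the mature microglial state, fell by 1.19 ± 0.14 over the same interval (adjusted p = 2.0e-06), from 6.63 to 2.92 CPM in the mean.

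TREM2 is a lipid receptor of the microglial surface that signals through its adaptor TYROBP (DAP12), and both members rose after E17. Trem2 was at 1.09, 1.53 and 1.27 CPM at E11, 1.61, 0.983 and 1.70 at E13, 1.48, 1.5 and 1.95 at E17, and 3.78, 3.74 and 3.29 at P1. Libraries of the 3 earlier ages overlapped and the P1 libraries stood above all of them. The rise from E17 to P1 was 1.12 ± 0.21 (2.17-fold, edgeR adjusted p = 0.000664) and that from E11 to P1 1.47 ± 0.21 (2.77-fold, adjusted p = 2.1e-05). Tyrobp was at 3.19, 4.16 and 3.34 CPM at E11, 3.41, 2.02 and 3.27 at E13, 2.35, 2.90 and 3.07 at E17, and 4.79, 5.03 and 3.80 at P1. Its P1 libraries lay above those of E17 but overlapped those of E11. It rose from E17 to P1 by 0.70 ± 0.20 (1.63-fold, adjusted p = 0.0113), while its change from E11 to P1 was 0.35 ± 0.20 (adjusted p = 0.12).

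The balance of receptor to adaptor shifted over the whole interval. Per read of Tyrobp there were 0.343, 0.369 and 0.381 reads of Trem2 in E11 libraries A, B and C, 0.473, 0.486 and 0.519 at E13, 0.629, 0.519 and 0.634 at E17, and 0.789, 0.744 and 0.868 at P1. This ratio averaged 0.364 ± 0.0196 (SD, n = 3) at E11 and 0.800 ± 0.0629 at P1. Each age lay above the one before except that E17 B fell just under E13 C. Per read of Csf1r, Trem2 went from 0.0630 to 0.0769 at E11 to 0.157 to 0.171 at P1, with no overlap. No test was made on these ratios.

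Of 7 listed genes through which this pair signals 5 were tested. From E17 to P1, where Trem2 and Tyrobp rose, 0 of the 5 passed the test in either direction with edgeR, DESeq2 or limma-voom, and 0 at an unadjusted p under 0.05 in edgeR, beside 49.9% of all tested genes that passed in that step. From E11 to E13 3 of the 5 fell, beside 17.5% of all tested genes. The kinase gene Syk fell by 0.80 ± 0.13 in that step (edgeR adjusted p = 0.000267) and was higher at E17 than at E13 (0.40 ± 0.13, adjusted p = 0.0129). The second change was lost by library totals (0.22, adjusted p = 0.153) and without E13 B (0.32, adjusted p = 0.0532). Plcg2, the phospholipase downstream of SYK, fell from E11 to P1 by 1.58 ± 0.20 (adjusted p = 4.5e-06). Syk and Plcg2 are also active in other blood cells, and 9 of 10 erythroid genes, which mark blood in the sample, fell from E11 to P1, beside 41.8% of all tested genes. Their sum was 5742 to 16480 CPM at E11 and 45.6 to 84.0 CPM at P1. The highest E11 means were those of embryonic globins, 6668 CPM for Hbb-y and 1881 for Hba-x. The adult globin Hbb-bs went from 74.0 to 30.1 CPM in the mean without passing (edgeR adjusted p = 0.0585). The sum thus does not measure the amount of blood alone. The part of blood in the falls of Syk and Plcg2 was not tested. For Lat2, an adaptor, the fall from E13 to E17 (-0.50 ± 0.21, adjusted p = 0.0455) was lost in 15 of 23 alternative settings.

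Aif1, which encodes the actin-binding protein IBA1 used to stain microglia, had no change past the threshold and the lowest count of any member in a library (16 reads, in E17 B). It was at 1.24, 1.53 and 1.18 CPM at E11, 1.01, 1.04 and 1.23 at E13, 1.29, 0.573 and 1.43 at E17, and 0.772, 1.39 and 1.17 at P1. All ages overlapped, and the spread within E17 and within P1 was wider than any difference between means. Its change from E11 to P1 was -0.24 ± 0.30 (edgeR adjusted p = 0.454).

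**Figure D2:**
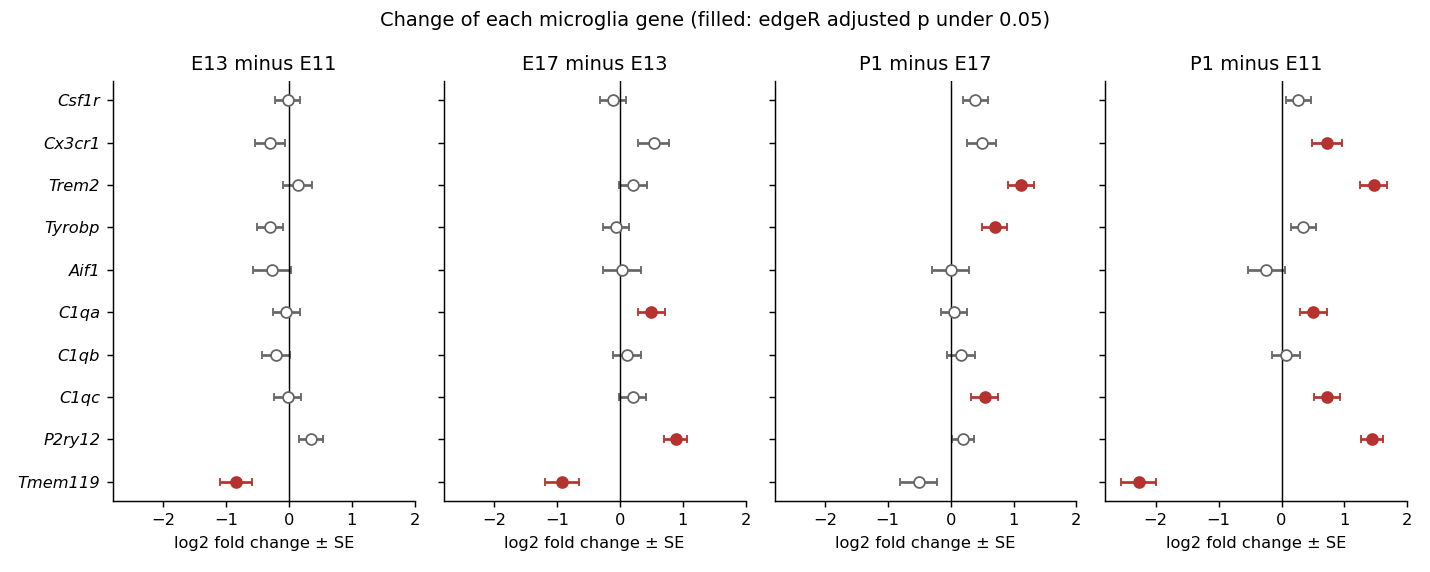
Log2 fold change of each of the 10 genes (horizontal axis, later minus earlier age) in the 4 comparisons, with bars of 1 SE and filled points where the edgeR adjusted p is under 0.05. Tmem119 is the only filled point left of 0, at -0.85, -0.92 and -2.27.

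C1qa, C1qb and C1qc encode the 3 chains of C1q, which in the brain comes mainly from microglia and tags synapses in postnatal life. C1qa was at 4.58, 5.45 and 4.17 CPM at E11, 5.50, 3.73 and 4.54 at E13, 5.45, 5.01 and 8.86 at E17, and 7.62, 6.68 and 5.94 at P1. E17 C lay above all other libraries, while all P1 libraries lay above all E11 libraries. C1qa rose from E13 to E17 by 0.50 ± 0.21 (edgeR adjusted p = 0.0478). That call was lost when E11 A, E13 B, E13 C, E17 C or P1 B was left out, with 0.19 (adjusted p = 0.376) without E17 C and 0.37 to 0.52 (adjusted p 0.055 to 0.166) without one of the others. The rise from E11 to P1 was 0.51 ± 0.21 (adjusted p = 0.0395), and was lost without E11 A, E11 C, P1 A or P1 B (0.42 to 0.55, adjusted p 0.0595 to 0.12).

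C1qb was at 7.95, 9.29 and 8.66 CPM at E11, 8.57, 5.92 and 7.93 at E13, 8.37, 5.41 and 10.3 at E17, and 10.04, 10.3 and 6.90 at P1. All ages overlapped, and its change from E11 to P1 was 0.07 ± 0.22 (edgeR adjusted p = 0.772). C1qc was at 6.23, 8.11 and 6.82 CPM at E11, 7.51, 5.53 and 7.81 at E13, 6.78, 6.05 and 10.9 at E17, and 12.6, 12.7 and 9.69 at P1. It rose from E11 to P1 by 0.72 ± 0.21 (1.65-fold, adjusted p = 0.00669), with every P1 library above every E11 library. Its rise from E17 to P1 was 0.54 ± 0.21 (adjusted p = 0.0485). It was lost when any 1 of 9 libraries was left out (E11 A, B and C, E13 A and C, E17 A and B, P1 A and B), with 0.38 to 0.54 and adjusted p from 0.052 to 0.167.

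The proportion of C1qc to C1qb differed between E11 and P1 by more than the libraries of either age differed among themselves. Per read of C1qb there were 0.784, 0.873 and 0.787 reads of C1qc in the E11 libraries, 0.877, 0.934 and 0.984 at E13, 0.810, 1.12 and 1.06 at E17, and 1.26, 1.23 and 1.41 at P1. Those of P1 lay above all others, and E17 A lay among those of E11. C1qa per read of C1qb was 0.482 to 0.587 at E11, 0.572 to 0.642 at E13, 0.652 to 0.927 at E17 and 0.649 to 0.862 at P1, so that E11 and P1 did not overlap but the libraries of P1 were spread as widely as the means differed. C1qc per read of C1qa overlapped between E11 and P1, with means of 1.49 ± 0.136 (SD, n = 3) and 1.73 ± 0.147. On levels per kilobase of exon (exons of GENCODE M21), C1qb was at 8.34 CPM at P1, C1qa at 6.49 and C1qc at 6.03 in the mean, with overlapping ranges for the 3 chains. At E11 these levels were 7.93, 4.55 and 3.65, and the range of C1qb lay above those of both others. Compared within a library, C1qb was above both others in every library of E11 and of P1 alike.

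Other complement genes moved in both directions. Of 12 listed, 11 were tested, and 4 rose and 5 fell from E11 to P1, near the share of all tested genes that changed (82.3%, with 40.5% higher and 41.8% lower). C4b, a substrate of the C1 complex, had 25 reads over the 3 libraries of E17 and 365 over those of P1, a rise of 3.56 ± 0.32 (edgeR adjusted p = 3.4e-06). It passed the filter on low counts by its P1 libraries only. The filter thus favoured a rise of C4b, which is among the 4, and its test adds no support to these reads. C4a and C4b are near-identical copies, and reads could have been split between them. Cd55, which restrains complement on the cell surface, rose from E11 to P1 by 1.56 ± 0.26 (adjusted p = 6.9e-05), and C4a by 1.38 ± 0.25 (adjusted p = 0.000174). Serping1, the inhibitor of the C1 proteases, fell by 3.26 ± 0.16 (adjusted p = 1.6e-10), from 15.0 to 18.0 CPM at E11 to 1.36 to 2.10 at P1. C3ar1, a receptor of microglia for a fragment of C3, fell from E11 to P1 by 0.78 ± 0.24 (adjusted p = 0.00871, and 0.0533 without P1 C). Meningeal fibroblast genes, which fell between E13 and E17, are given below, and their part in these changes was not tested.

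The 2 mature members went opposite ways. P2ry12 encodes the purine receptor with which microglial processes sense ATP and ADP. It was at 2.01, 2.21 and 1.53 CPM at E11, 2.65, 1.94 and 2.78 at E13, 3.83, 4.62 and 5.11 at E17, and 4.85, 5.39 and 5.37 at P1. Those of E17 lay above all of E11 and E13, while E17 overlapped P1. It rose from E13 to E17 by 0.89 ± 0.18 (1.85-fold, edgeR adjusted p = 0.000468) and from E11 to P1 by 1.44 ± 0.18 (2.71-fold, adjusted p = 4.4e-06). The steps from E11 to E13 and from E17 to P1 were 0.35 ± 0.19 and 0.20 ± 0.17 (adjusted p = 0.154 and 0.353). Per read of Csf1r, P2ry12 had 0.0871 to 0.116 reads at E11, 0.127 to 0.147 at E13, 0.235 to 0.363 at E17 and 0.219 to 0.270 at P1. On the level and on the ratio alike, the step from E13 to E17 was the largest of the 3. An exon of P2ry12 shares 9 bases with an exon of Med12l on the opposite strand in GENCODE M21.

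Tmem119 encodes a membrane protein used to tell adult microglia from other macrophages, and is known also from bone-forming cells. It was at 4.37, 5.16 and 8.38 CPM at E11, 3.54, 2.78 and 3.61 at E13, 1.63, 1.25 and 2.27 at E17, and 1.41, 1.34 and 0.954 at P1. E11, E13 and E17 did not overlap, E17 and P1 did, and E11 C stood above the other E11 libraries. It fell from E11 to E13 by 0.85 ± 0.25 on the log2 scale (edgeR adjusted p = 0.0173). This first fall did not pass without E11 C (-0.53, adjusted p = 0.0941) or without E13 B (-0.73, adjusted p = 0.0745). It fell from E13 to E17 by 0.92 ± 0.27 (adjusted p = 0.00821) and from E11 to P1 by 2.27 ± 0.28 (0.207 of the E11 level, adjusted p = 3.4e-06). Per read of Csf1r it went from 0.252 to 0.477 reads at E11 to 0.166 to 0.212 at E13, 0.0986 to 0.106 at E17 and 0.0480 to 0.0637 at P1, with no overlap between any of the ages. The number of reads of P2ry12 per read of Tmem119 was 0.183 to 0.460 at E11, 0.697 to 0.769 at E13, 2.25 to 3.69 at E17 and 3.43 to 5.63 at P1. Over the 12 libraries Pearson's r between the log2 levels of both genes was -0.903, a description of libraries that share their ages.

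**Figure D3:**
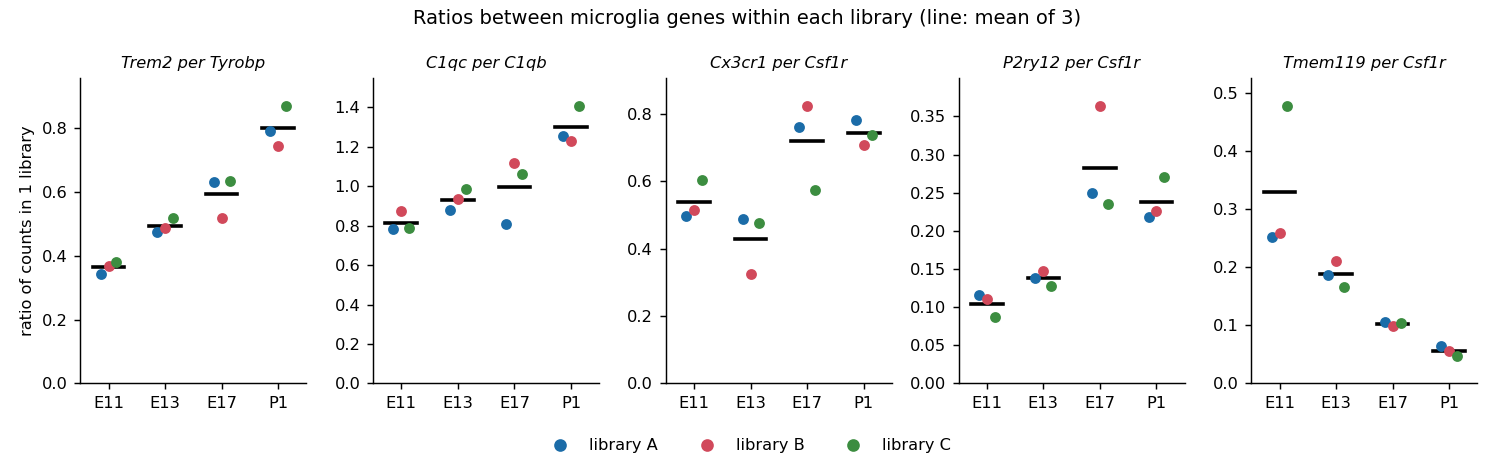
Ratio of the counts of a pair of genes within a library (vertical axis, from 0) at each age, with 1 point per library and a line at the mean of 3, for Trem2 per Tyrobp, C1qc per C1qb, and Cx3cr1, P2ry12 and Tmem119 per Csf1r. Tmem119 per Csf1r falls from between 0.252 and 0.477 at E11 to between 0.0480 and 0.0637 at P1, while Trem2 per Tyrobp climbs from a mean of 0.364 to 0.800.

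Markers of other cells that the dissected cortex could hold moved with age, and are given here because the early members are shared with other macrophages. The summed level of 12 genes of border-associated macrophages, which live in the meninges and around vessels, was 99.2 to 112 CPM at E11, 74.1 to 107 at E13, 15.2 to 16.9 at E17 and 19.2 to 28.7 at P1. Of the 9 tested 9 fell from E13 to E17 and from E11 to P1, beside 37% and 41.8% of all tested genes. From E17 to P1 2 rose, beside 24%. Their levels at E17 went down to a mean of 0.0395 CPM (Ms4a7), and genes this low there passed the filter on low counts by E11 or E13 libraries. The filter thus favoured falls in this list, and the count of falls adds no support to the summed levels. Mrc1, their mannose receptor, fell by 3.69 ± 0.24 from E13 to E17 (edgeR adjusted p = 2e-08), and F13a1 by 5.81 ± 0.70 (adjusted p = 2.3e-05). None of the 12 was at 0 at any age. The sum of 8 meningeal fibroblast genes was 1183 to 1438 CPM at E11, 803 to 1098 at E13, 16.1 to 19.4 at E17 and 15.1 to 57.0 at P1, with the highest P1 value in library A. Genes of the choroid plexus, the secretory epithelium of the ventricles, took a like course. Their sum over 7 genes was 96.5 to 268 CPM at E11, 43.4 to 399 at E13, 1.03 to 9.24 at E17 and 1.83 to 2.53 at P1. From E13 to E17 6 of the 7 fell, beside 37% of all tested genes and with the same limit from the filter. Tmem119 was thus high at the ages at which meningeal, border and choroid plexus genes were high, while the summed level of the 10 microglia genes did not fall with them. Within E11 and within E13, library C had the highest level of Tmem119 and the highest fibroblast and border sums of its age. Its choroid plexus sum was the lowest of its age in both (96.5 and 43.4 CPM). The part of these cells in the change of any member was not tested. Between E11 and E13, where Tmem119 also fell, 1 of the 9 border genes and 1 of the 7 choroid plexus genes fell. Of the 8 fibroblast genes 1 fell and 1 rose. Of all tested genes 17.5% fell and 22.6% rose in that step.

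Genes of blood leukocytes were near the limit of detection. The sum of 10 monocyte and granulocyte genes reached at most 3.49 CPM in a library and that of 6 lymphocyte genes 0.446 CPM, both at E11. Ly6g, a granulocyte marker, had no count at any age, Ly6c2, a monocyte marker, none at E11 and E17, and the T cell gene Cd3e none at E11, E13 and E17. Other genes of the monocyte and granulocyte list were detected. Mpo had a mean of 0.613 CPM at E11 and 0.00936 at E13, and S100a9 one of 0.356 at E11 and 0.430 at P1. Summed levels of 8 endothelial genes were 214 to 298 CPM in all libraries. From E11 to P1 2 of them rose and 4 fell, beside 40.5% of all tested genes higher and 41.8% lower. Cldn5, of the tight junctions, went from a mean of 15.2 to 40.7 CPM and Cdh5, of the adherens junctions, from 68.5 to 18.3. Markers of cortex were present in every library, beside those of meninges and, at E11 and E13, of choroid plexus: 8 genes of cortical progenitors and neurons summed to 1339 to 2406 CPM, and none was at 0.

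**Figure D4:**
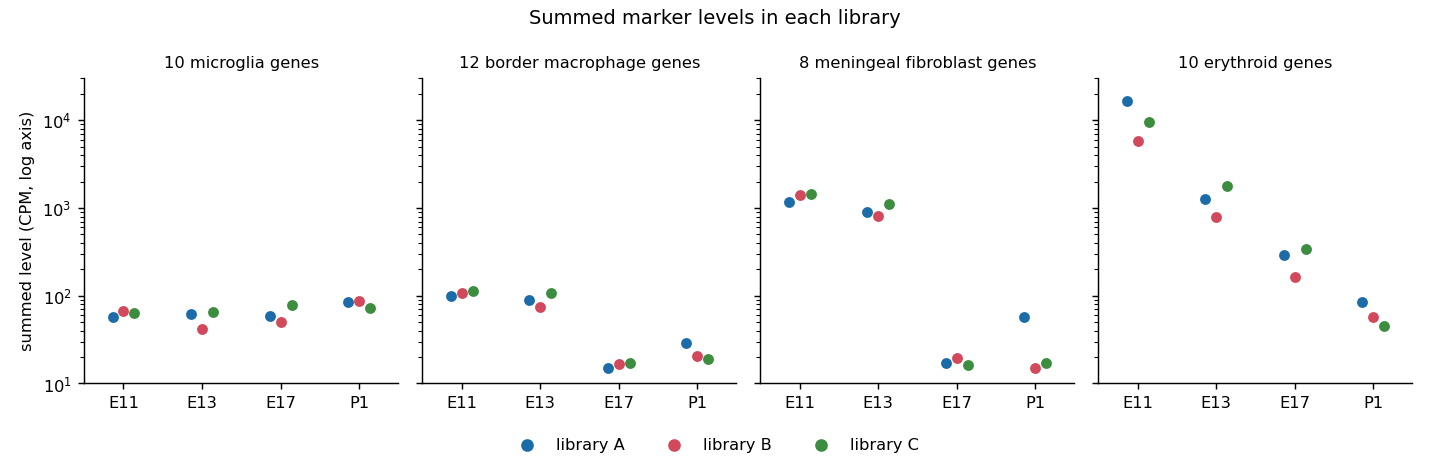
Summed level in CPM (vertical axis, logarithmic) of the 10 microglia genes and of border-associated macrophage, meningeal fibroblast and erythroid marker genes, by age, with 1 point per library. The microglia genes stay between 41.4 and 87.2 CPM, while the meningeal fibroblast genes drop from above 803 CPM at E11 and E13 to at most 57.0 CPM at E17 and P1.

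Other genes of resting microglia were listed beside P2ry12 and Tmem119, 12 in all, of which 11 were tested. From E13 to E17 6 rose and 1 fell, from E17 to P1 4 rose, and from E11 to P1 7 rose and 2 fell. Of all tested genes, 36.8% rose and 37% fell in the first of these intervals, 24% rose in the second, and 40.5% rose and 41.8% fell in the third. Siglech, a lectin of microglia, was at 0.207 to 0.531 CPM at E11 and 1.81 to 2.09 at P1, a rise of 2.28 ± 0.31 (edgeR adjusted p = 1.2e-05), and its step from E13 to E17 was 1.76 ± 0.31. Gpr34, a receptor for lysophosphatidylserine, rose by 1.91 ± 0.25 (adjusted p = 6.4e-06), and P2ry13, an ADP receptor of the same family as P2ry12, by 1.67 ± 0.25 (adjusted p = 3.1e-05). Olfml3, a secreted matrix protein, fell from E11 to P1 by 0.59 ± 0.16 (adjusted p = 0.00454), and Slc2a5, the fructose transporter, from E13 to E17 by 0.81 ± 0.21 (adjusted p = 0.00309).

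Genes of the transcription factors that specify microglia had no common direction. Of 7, 2 rose and 2 fell from E11 to P1, beside 40.5% of all tested genes higher and 41.8% lower. Spi1, the gene of PU.1, stayed between 0.788 and 1.78 CPM and was 0.62 ± 0.21 higher at P1 than at E17 (edgeR adjusted p = 0.0237, but 0.084 without E17 B, 0.0671 without P1 A and 0.0546 with no filter on low counts). Irf8, a partner of PU.1, fell from E13 to E17 by 0.80 ± 0.20 (adjusted p = 0.00258) and rose from E17 to P1 by 0.78 ± 0.20 (adjusted p = 0.00545). Runx1, a factor of yolk sac haematopoiesis, fell from E11 to P1 by 1.55 ± 0.30 (adjusted p = 0.000321). Sall1, which maintains microglial identity but is also a gene of neural progenitors, fell from 195 to 229 CPM at E11 to 21.8 to 28.7 at P1 (-3.02 ± 0.12, adjusted p = 4.5e-11). Sall3, of the same family, rose from E13 to E17 by 1.30 ± 0.29 (adjusted p = 0.002).

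Of 8 genes of the phagocytic microglia that appear in white matter around birth, 5 rose from E17 to P1, beside 24% of all tested genes. None fell in that step with edgeR, DESeq2 or limma-voom, and 0 at an unadjusted p under 0.05 in edgeR. Among the 5 was Clec7a, with means of 0.220, 0.167 and 0.223 CPM at E11, E13 and E17 and 0.708 at P1. For a gene this low at the earlier ages the filter on low counts favoured a rise, so Clec7a adds no support to the count. Spp1, which encodes osteopontin, was at 1.00 to 1.43 CPM at E11, 1.18 to 2.19 at E13, 1.93, 8.31 and 1.62 in E17 libraries A, B and C, and 19.2, 21.9 and 13.3 at P1. Its rise from E17 to P1 was 2.22 ± 0.52 (edgeR adjusted p = 0.00498), and 3.36 without E17 B. Gpnmb, a membrane glycoprotein of lysosome-rich macrophages, was at 0.281 to 0.609 CPM at E17 and 3.18 to 5.43 at P1 (3.47 ± 0.35, adjusted p = 6.5e-06). Lpl, lipoprotein lipase, which neurons also make, was at 38.1, 72.5 and 34.4 CPM at E17 and 122, 133 and 150 at P1 (1.49 ± 0.23, adjusted p = 0.000427). Igf1, a growth factor that many tissues make, fell from E11 to E13 by 1.26 ± 0.22 (adjusted p = 0.000586) and rose from E17 to P1 by 0.87 ± 0.22 (adjusted p = 0.00551). Cd63, a membrane protein of lysosomes in many cells, fell from E11 to P1 by 1.14 ± 0.11 (adjusted p = 4.8e-07). The rises of Spp1, Gpnmb and Lpl after E17 fell in the same interval as those of Trem2 and Tyrobp.

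**Figure D5:**
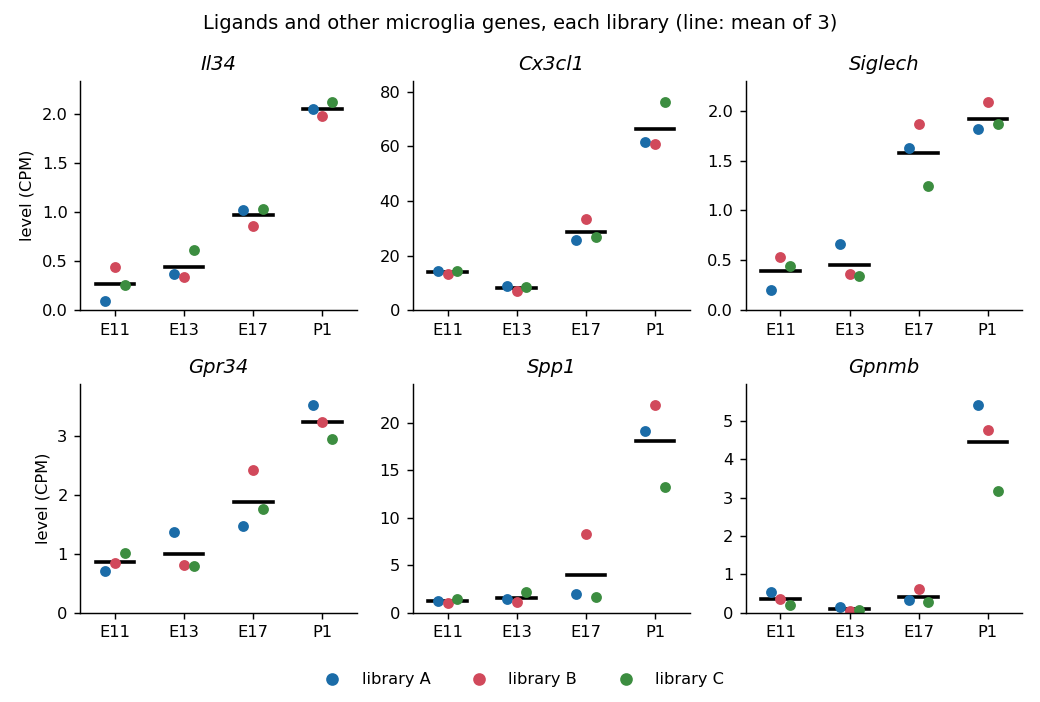
Level in CPM (vertical axis, from 0, own scale for each gene) of Il34, Cx3cl1, Siglech, Gpr34, Spp1 and Gpnmb at the 4 ages, with 1 point per library and a line at the mean of 3. Cx3cl1 dips at E13 before it rises, and Spp1 at E17 is spread between 1.62 and 8.31 CPM, with library B the highest.

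Some genes had a pattern over the 12 libraries close to that of a member. Likeness was Pearson's r of log2 CPM over the 12 libraries, compared for 15446 genes, and describes points that share library, depth and age. For Csf1r the closest were Laptm5 (r = 0.846), a lysosomal protein of blood cells, Bri3 (0.845), Cd33 (0.834), a sialic acid receptor of myeloid cells, Aspscr1 (0.826) and Pld4 (0.824), a phospholipase of microglia. Laptm5 lay between 8.70 and 14.04 CPM. Among the closest to P2ry12 were Slc37a3 (0.983), Cuedc2 (0.981), Ccdc32 (0.976) and Sntg1 (0.975). Slc37a3 lay between 62.6 and 108 CPM. For Tmem119, examined after its values were seen, Tle1 (0.979), Rab32 (0.977) and Zfp618 (0.977) came first, and Tle1 lay between 67.3 and 132 CPM, highest like Tmem119 in E11 C.

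Among the members, Csf1r correlated over the 12 libraries with C1qc (r = 0.854), C1qb (0.824) and Tyrobp (0.792), and with neither mature gene beyond 0.325 (P2ry12) and -0.012 (Tmem119). Trem2 and Tyrobp had an r of 0.769, and C1qa and C1qc of 0.857. In order of level, the only neighbouring ages whose libraries did not overlap were E17 and P1 for Cx3cr1 and for Trem2, E13 and E17 for P2ry12, and E17, E13 and E11 for Tmem119. For Csf1r, Tyrobp, Aif1, C1qa, C1qb and C1qc every neighbouring pair in that order overlapped.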

How the data were processed

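The deposited values are raw read counts per Ensembl gene, 1 table for each of 12 libraries, with no normalization by the authors. Per the labels' protocols, poly(A)+ RNA from 1 µg of total RNA was made into TruSeq Stranded mRNA libraries and sequenced from 1 end for 75 bases (NextSeq). Tools listed in the submitters' processing notes are STAR 2.5.2b, HTSeq 0.5.3, SAMtools, bcl2fastq 2.18 and DESeq2 1.8.1. What each did is not given in the sources used here, nor are genome build, annotation and strandedness of the counting. From these counts, genes were kept by filterByExpr (minimum count 10; 17847 kept, 32753 removed), libraries were scaled by TMM (factors 0.92 to 1.09), and edgeR 4.0.16 in R 4.3.3 fitted all 12 libraries together, with a mean for each age, by robust quasi-likelihood. Every adjusted p in the text is from edgeR unless another tool is named, two-sided, after Benjamini and Hochberg over all tested genes, with a threshold of 0.05. Alternatives were RLE and upper-quartile factors, scaling by library totals, other filters on low counts, removal of erythroid genes, the ages compared only, the replicate letter as a block, DESeq2 1.42.0, limma-voom (limma 3.58.1) and libraries left out. Libraries of an age differed beyond counting error, so none was a copy. The scripts were tested on simulated data.

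Symbols were matched to 50376 of the identifiers. The members and gene lists were chosen with earlier results of these data known. All 10 members are described, and from each other list the 3 largest rises and falls past the threshold among genes of at least 1 CPM at 1 age. Gene names apart from that rule are Apoe, Spi1, Clec7a, Mrc1, F13a1, Ms4a7, Hbb-y, Hba-x, Hbb-bs, Mpo, S100a9, Cldn5, Cdh5, markers with no count, and the genes most like Tmem119. Some genes that this rule names are not reported here, and the list counts include them.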

Additional observations from a re-analysis of the deposited data

How the results depend on the processing

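In the alternatives run, the changes of Trem2 and P2ry12 named as rises and of Tmem119 from E13 to E17 and from E11 to P1 kept their direction and passed edgeR or the other tool. Calls of other members that were lost are given here or with the results. Omitting the 3 libraries that stood apart in earlier results (E17 A, E13 C, E11 C) left 0 called genes from E11 to E13 and 1 (Trem2) from E17 to P1. With those 3 left out, uncalled log2 changes turned for Trem2 from E11 to E13 (-0.011), Csf1r (0.11) and Tyrobp (0.13) from E13 to E17, and Aif1 (0.092) and C1qa (-0.059) from E17 to P1. Calls then lost were Tyrobp from E17 to P1 (0.60, adjusted p = 0.0627), C1qa from E13 to E17 (0.60, 0.0723) and from E11 to P1 (0.43, 0.137), C1qc from E17 to P1 (0.44, 0.182), Tmem119 from E11 to E13 (-0.59, 0.135) and, of the related genes named, Spi1 from E17 to P1 (0.66, 0.0543) and Lat2 from E13 to E17 (-0.42, 0.174), while Cx3cr1 from E13 to E17 was gained (0.76, 0.0395). Leaving out 1 library gave 0 to 1 called genes from E11 to E13 (0 without E11 C or E13 B) and 4 to 8 across the 4 ages (4 without P1 B, 8 without E17 C). Of the other counts, those between 2 ages moved by no more than 1.5 times, and 42 to 55 related genes differed across ages, beside 51 of 66 as reported. The cause of these moves was not tested.

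Uncalled changes also turned with the scaling, the filter and the tool. Aif1 from E13 to E17 was -0.049 with upper-quartile factors, -0.15 by library totals and -0.033 with limma-voom. From E17 to P1 it was 0.018 (RLE), 0.029 (upper quartile), 0.0031 (no filter), 0.015 (at least 1 CPM), 0.024 (DESeq2) and 0.032 (limma-voom). C1qb was -0.073 from E13 to E17 by library totals, and -0.027 (upper quartile) and -0.16 (library totals) from E11 to P1. By library totals the median of all tested genes moved to -0.22 from E13 to E17 and -0.26 from E11 to P1, and 5407 of 13590 called genes were higher at E17 than at E13, against 6564 of 13174. With upper-quartile factors these medians were -0.12 and -0.13. Leaving out 1 library at a time, the uncalled changes from E11 to E13 ran from -0.18 to 0.16 for Csf1r, -0.53 to 0.0052 for Cx3cr1, -0.20 to 0.089 for C1qa and -0.11 to 0.12 for C1qc. From E13 to E17 they ran from -0.36 to 0.054 for Csf1r, -0.26 to 0.079 for Tyrobp, -0.23 to 0.33 for Aif1, -0.12 to 0.33 for C1qb and -0.11 to 0.37 for C1qc. From E17 to P1 they ran from -0.30 to 0.26 for Aif1, -0.10 to 0.36 for C1qa and -0.052 to 0.40 for C1qb.

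C1qa from E13 to E17 also missed the threshold with upper-quartile factors, library totals, the 1 CPM filter and the compared ages only (adjusted p 0.0543 to 0.194), C1qa from E11 to P1 with upper-quartile factors and library totals (0.0866 and 0.232), and C1qc from E17 to P1 with library totals, no filter and the compared ages only (0.0524 to 0.0917). Calls gained were Cx3cr1 from E13 to E17 with DESeq2 and limma-voom (adjusted p = 0.0257 and 0.0325), and, with the compared ages only, Cx3cr1 from E17 to P1 and Csf1r from E11 to P1 (adjusted p = 0.00253 and 0.016).

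The labels do not say that a letter pairs animals of different ages, and only 4 of 18 same-letter pairs had deviations that correlated above 0.1 (-0.343 to 0.33). With the replicate block, C1qa from E13 to E17 and from E11 to P1 and C1qc from E17 to P1 missed the threshold (adjusted p = 0.0654, 0.0553 and 0.0562), Aif1 from E17 to P1 was 0.0036, and 51 of the related genes differed across ages.

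Counts of 16 to 929 reads per member and library limit the precision, and so do 3 animals per age: the SE of a member's log2 change was 0.17 to 0.31.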

Other observations

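Genes shared by all macrophages moved in both directions. Of 18 listed, 18 were tested, and 11 differed across the 4 ages, beside 90.2% of all tested genes. From E11 to P1 4 rose and 3 fell, beside 40.5% and 41.8%. Coro1a, an actin regulator that neurons also make, rose by 2.09 ± 0.10 (edgeR adjusted p = 1.5e-10), and Csf2ra, the receptor of GM-CSF, by 1.85 ± 0.12 (adjusted p = 4.5e-09). Itgam, which encodes CD11b, rose from E13 to E17 by 1.71 ± 0.40 (adjusted p = 0.00218), with 2.01 to 6.45 CPM at E17. Both chains of the oxidase cytochrome fell from E11 to P1, Cybb by 2.01 ± 0.40 (adjusted p = 0.000372) and Cyba by 1.72 ± 0.15 (adjusted p = 1.1e-07). Lyz2, the lysozyme of macrophages, fell from E13 to E17 by 1.36 ± 0.19 (adjusted p = 2.1e-05) and rose from E17 to P1 by 0.96 ± 0.19 (adjusted p = 0.00109), the same course as Irf8.

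Genes of cell division, which in this tissue belong mostly to neural progenitors, fell. Of 10 listed, 10 fell from E13 to E17 and 10 from E17 to P1, beside 37% and 25.9% of all tested genes. Bub1, a kinase of the mitotic checkpoint, fell from 156 ± 4.55 CPM (SD, n = 3) at E11 to 5.47 ± 0.483 at P1, by 4.83 ± 0.13 on the log2 scale (adjusted p = 1.9e-12). Library E17 B had the highest level of Spp1 and Lpl of its age, and the lowest of its age for 7 of the 10 microglia genes, Csf1r, Aif1 and Tmem119 among them.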
